A study of Mus musculus with 15 samples.

Results

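Purkinje cells of the early postnatal cerebellum were taken from Drop-seq profiles of 5 wild-type (WT) P7 cerebella. They were chosen by a gate on 6 genes, namely Pcp2, Calb1, Car8, Itpr1, Nrk and Kitl: a cell with at least 500 UMIs and 500 genes was selected if it had a UMI in at least 3 of the 6 genes and at least 4 UMIs over them. A UMI, or unique molecular identifier, stands for 1 captured mRNA molecule. The gate took 147 of 7366 WT cells, out of 38351 cells that met the same minimums in the whole series. The 3 groups of the series held 5 mice each. WT cerebella came from untreated C57BL/6 pups, with cells captured on a PDMS device. The other groups were medulloblastomas of M-Smo (Math1-Cre:SmoM2/EYFP) mice taken at P15 after 3 daily doses of vehicle or of vismodegib, an inhibitor of SMO, with cells captured on a glass device. In M-Smo mice Cre is driven by the Math1 promoter in the lineage of the cerebellar granule neuron progenitors (CGNPs), a lineage that Purkinje cells do not descend from. Only the 5 untreated WT cerebella, which carry no transgene, were used to describe Purkinje cells.

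Purkinje cells are the large GABAergic neurons whose axons are the only output of the cerebellar cortex. They receive excitation from climbing fibers and from the parallel fibers of granule neurons, and release of stored calcium is central to their physiology. Around birth they also secrete SHH, the mitogen that drives CGNPs to divide, while the cells that respond to it lie in the external granule layer above them. At P7 these neurons are still extending their dendrites and synapses.

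Promoter sequence is shown for 2 genes that bear the name Purkinje cell protein, Pcp2, a gate gene that encodes a modulator of G protein signaling, and Pcp4, a gene outside the gate that encodes a calmodulin-binding peptide. Both hold the letters AGGTCA, on either strand, in the 250 bases before their start. Nuclear receptors such as RORA, whose gene was itself high in these cells, are known to bind these letters. Sequences and starts are from RefSeq on GRCm38.p6, and capitals mark the match. The windows lie at chr8:3625548-3625797 on the minus strand for Pcp2, with the first base of the match 12 bases before the start, and at chr16:96467356-96467605 on the plus strand for Pcp4, with the match read from the other strand as TGACCT and the first base 164 bases before the start.
Pcp2: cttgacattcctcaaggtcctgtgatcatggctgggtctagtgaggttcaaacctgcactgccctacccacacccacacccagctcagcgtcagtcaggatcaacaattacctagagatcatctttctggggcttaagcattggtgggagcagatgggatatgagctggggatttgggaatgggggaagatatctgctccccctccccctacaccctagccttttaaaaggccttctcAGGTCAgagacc
Pcp4: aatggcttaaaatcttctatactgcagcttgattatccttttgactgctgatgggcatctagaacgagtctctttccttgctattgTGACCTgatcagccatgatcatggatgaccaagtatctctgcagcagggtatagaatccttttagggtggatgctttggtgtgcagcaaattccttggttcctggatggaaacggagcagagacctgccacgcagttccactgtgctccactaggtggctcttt
A promoter window was at hand for 15 of the 21 genes of the Purkinje identity list. The counts that follow take every window of a gene in full, not only the 250 bases shown. Of these 15 genes 2, Pcp4 and Dner, held AGGTCA, against 18.1% of all 27025 genes with a window. Pcp4l1, a gene of a similar name, had a window without it. Among the 17 of 21 genes named below as highest that had a window, Iltifb and Pcp4 held it. CCCNNGGG, letters bound by EBF factors, stood in 6 of the 15 identity windows, in 6 of the 17 windows of the highest genes, in 5 of the 16 windows of the lowest genes and in 15.4% of all genes. Neither motif was therefore held by most of the genes that were high in Purkinje cells, and a match is only a run of letters in these windows.

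The share of gated cells was 2.43% in cerebellum 1 (51 of 2103 cells), 1.25% in cerebellum 2 (15 of 1196), 2.24% in cerebellum 3 (25 of 1117), 2.11% in cerebellum 4 (45 of 2134) and 1.35% in cerebellum 5 (11 of 816), with a mean of 1.87% ± 0.537 (SD, n = 5). The exact Clopper-Pearson 95% intervals, which cover counting error only, ran from 0.675% to 2.40% in cerebellum 5 and from 1.81% to 3.18% in cerebellum 1, so the 5 intervals overlapped. These are shares of captured cells after papain dissociation of a portion of each cerebellum, not shares of the tissue. No barcode of a kept cell was shared between any of the 10 pairs of WT libraries.

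Gated cells were deeper than the rest of the tissue in every cerebellum. Their median UMI count was 9121, 4232, 2960, 2923 and 8300 in cerebella 1 to 5, against 1610, 1214, 1073.5, 1309 and 1545 in all other kept cells. With 2.00% of the kept WT cells they held 6.74% of the UMIs. A gate that counts UMIs takes deep cells more readily, and 31 of the 147 lay above the median plus 5 SD of their cerebellum for UMIs, genes or the mitochondrial share. With each cell first thinned to 500 UMIs the share was 1.53%. The median mitochondrial share of UMIs was 4.65% to 8.45% in gated cells and 2.75% to 4.74% in the other cells, higher in gated cells in each cerebellum, and its part in the results was not tested.

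**Figure D1:**
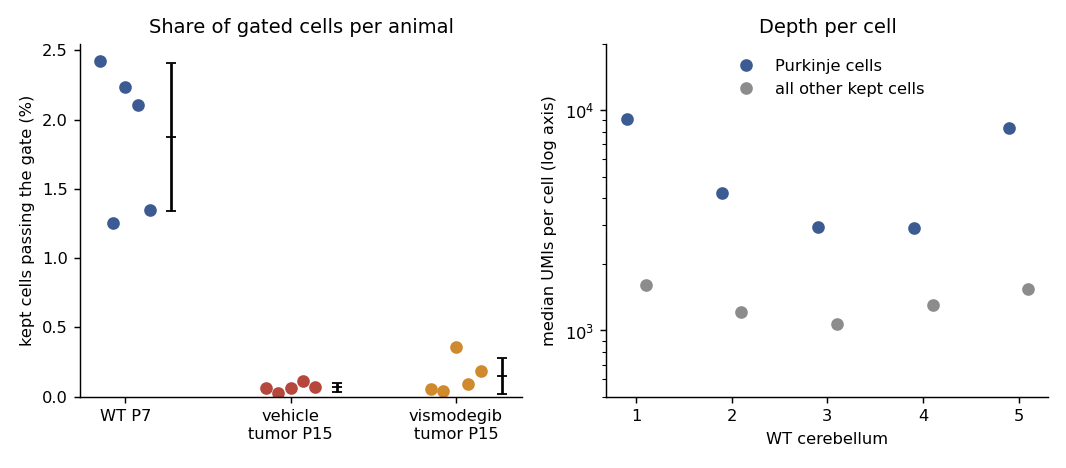
Left, percentage of kept cells that pass the 6-gene gate in each of the 15 animals, with the mean and SD of each group of 5 beside the points; the WT cerebella sit between 1.25% and 2.43% and all 10 tumors at or below 0.358%. Right, median UMIs per cell on a log axis in each WT cerebellum, where Purkinje cells (2923 to 9121) lie above all other kept cells (1073.5 to 1610).

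The 6 gate genes chose the cells, so their levels are given as a description. In UMIs per 1000000 UMIs (CPM) of the cells summed within a cerebellum, gated cells averaged 8867 ± 2060 for Pcp2, 5259 ± 320 for the calcium buffer Calb1, 6358 ± 1082 for Car8, an inhibitor of IP3 receptor binding, 1028 ± 366 for the IP3 receptor Itpr1, 580 ± 116 for the kinase Nrk and 1281 ± 91.5 for Kitl, the ligand of KIT (SD, n = 5). The other cells averaged between 3.95 CPM for Nrk and 52.7 CPM for Car8. Of all UMIs of the 6 genes in kept cells, 90.5% lay in gated cells. All 6 genes were detected in 86 of the 147 cells, and a cell held a median of 85 gate UMIs, with a range of 4 to 706. Outside the gate, 24.3% of cells had at least 1 gate UMI.

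A list of 20 Purkinje identity genes outside the gate was used to check the name. The list took 28875 ± 6549 CPM in gated cells and 1808 ± 168 CPM in the other cells. Pcp4 alone made up most of the sum, and the other 19 genes took 7798 ± 953 CPM in gated cells and 1570 ± 137 CPM in the other cells. Near the lower limit of the gate the name did not hold. The 13 cells with 4 to 6 gate UMIs held 1179 CPM of the list, 62.4 CPM of Pcp4, no UMI of Gng13 or Gad1, and 1222 CPM of Neurod1, a factor of granule neurons. The 264 cells just outside the gate held 1614 CPM of the list, 222 CPM of Pcp4 and 1891 CPM of Neurod1. Cells with 7 to 20 gate UMIs (16) held 10256 CPM of the list, those with 21 to 80 (43) held 33010 CPM and those with over 80 (75) held 31601 CPM. The limit of 7 gate UMIs was set after these values were seen. The 13 cells lay in cerebella 1 (6), 2 (2), 3 (2) and 4 (3). They held 15.7% of the UMIs of all gated cells, and 25.9% in cerebellum 1, where 1 of them had 60592 UMIs. Several results that rest on low levels in Purkinje cells are therefore also given for the 134 cells with at least 7 gate UMIs, which were 1.72% of kept cells on average.

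**Figure D2:**
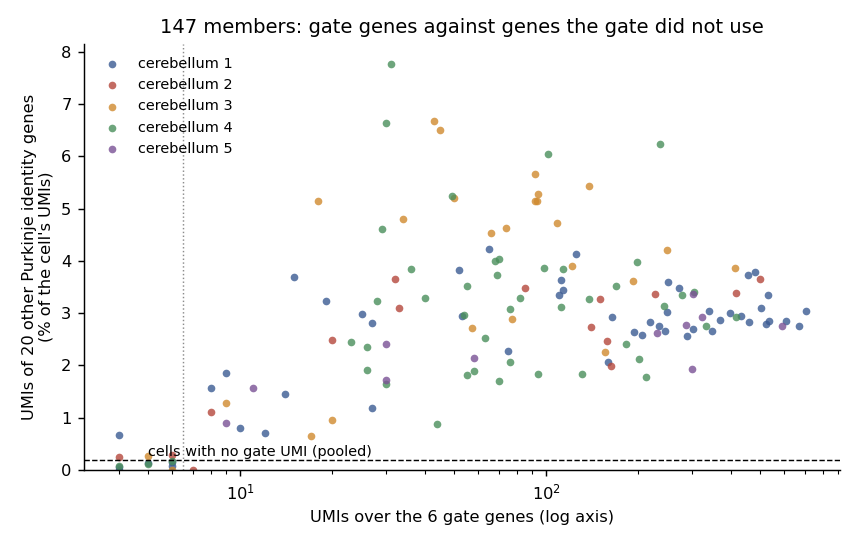
Each point is 1 of the 147 gated cells, with its UMIs over the 6 gate genes on a log x axis and the UMIs of 20 identity genes that the gate did not use, as a percentage of the UMIs of the cell, on the y axis. Left of the dotted line, the 13 cells with 4 to 6 gate UMIs lie at or near the dashed level of cells with no gate UMI, while most cells with more gate UMIs lie far above it.

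Purkinje cells differed from the other cells of the same cerebella across a large part of the transcriptome. UMI counts were summed per cerebellum over Purkinje cells and over all other kept cells and tested by edgeR's quasi-likelihood test with the cerebellum as a block, at a Benjamini-Hochberg adjusted p under 0.05. Of 10372 genes tested, 2027 (19.5%) were higher and 2438 (23.5%) were lower in Purkinje cells, with a median log2 fold change of -0.20 over all genes, and gate genes were left out of the calls. The count filter asks for about 9.29 CPM in 5 sums, which 5614 of these genes reached in both classes, 666 through Purkinje cells only and 3168 through the other cells only. Entry through 1 class favors a gene that is higher in that class, so no p is given for such a gene as support. Counts for most lists are followed by those for genes over the limit in both classes, of which 23.99% were higher and 19.97% lower. Such counts were not made for the oxidative phosphorylation, mitochondrial and ribosomal sets given at the end. Purkinje sums were also tested against Pax2+ cells (452 cells with a Pax2 UMI, the GABAergic interneuron lineage) and against granule neurons (1174 cells with at least 2 of Cntn2, Grin2b and Rbfox3). Against Pax2+ cells 28.1% of 3221 genes were higher and 25.8% lower, and against granule neurons 25.6% of 5757 genes were higher and 25.3% lower. The 3 comparisons share the Purkinje sums, so agreement among them is not independent.

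Most identity genes were higher in Purkinje cells. Of 20 tested, 18 were higher and 1 was lower than in the other cells, with a median log2 fold change of 3.24. Of the 18, Ebf3 and Foxp1 lost their calls by DESeq2, without the block and without the filter on low counts (0.28 to 0.68). Pcp4 measured 15532, 18194, 31838, 22679 and 17142 CPM in Purkinje cells of cerebella 1 to 5 and 139 to 331 CPM in the other cells. No Purkinje value came near the others, and the log2 fold change was 6.57 ± 0.16 (SE back-calculated from the F statistic, edgeR adjusted p = 5.71e-32). In GENCODE M21 Pcp4 overlaps Igsf5 on the same strand, so the share of its counts from each gene is uncertain. Gng13, a G protein gamma subunit, measured 260, 333, 226, 392 and 269 CPM against 0.576 to 1.59 CPM in the other cells, with a fitted log2 fold change of 8.09 that rests on 16 UMIs in the other cells. It was detected in 88 Purkinje cells (59.9%), in 0.222% of the other cells and in none of 284 non-neural cells, which had a median of 1832 UMIs against 3837 in Purkinje cells. Thinned to 500 UMIs per cell, the shares were 15.0% and 0.0831%.

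The transcription factors of the list split. Rora, the nuclear receptor that Purkinje cell maturation requires, averaged 919 CPM against 45.8 CPM (log2 fold change 4.41), and Foxp2 averaged 301 against 12.9 CPM (4.66). Skor2, a corepressor of the lineage, averaged 18.1 against 0.409 CPM, and Bcl11a averaged 339 against 43.1 CPM. The LIM homeobox factor Lhx1 did not pass the test, with 411 CPM in Purkinje cells and 371 CPM in the others (edgeR adjusted p = 0.25). Lhx5, its close relative, was the 1 gene of the list that was lower, at 14.2, 24.7, 37.7, 42.9 and 0 CPM against 22.7 to 70.0 CPM, a log2 fold change of -1.06. The 2 sets of Lhx5 values overlapped, and the call was lost without cerebellum 1 (-0.29), 2 (-1.01) or 5 (-0.88), without the block (-1.02) and by DESeq2 (-1.05).

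**Figure D3:**
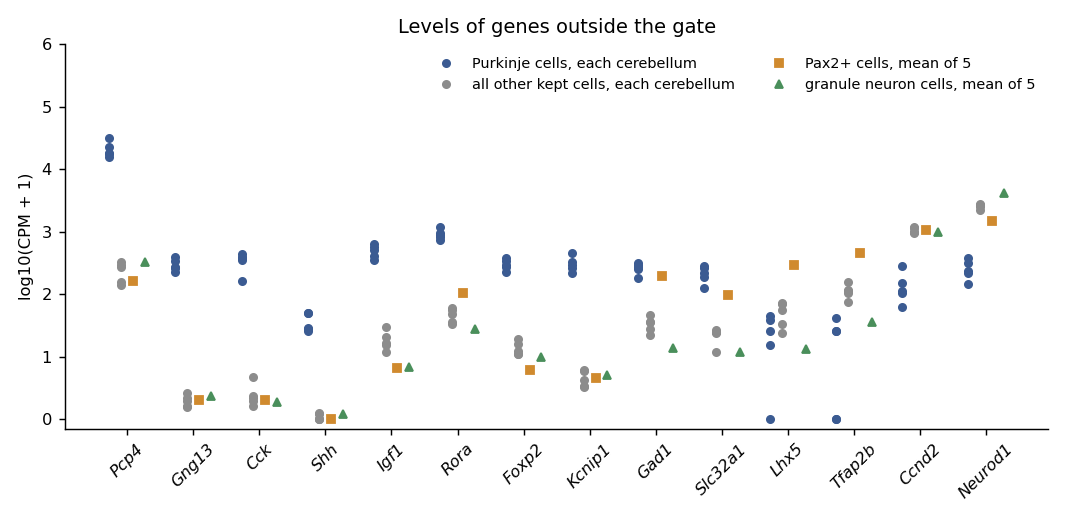
Levels of 14 genes outside the gate as log10(CPM + 1). Circles are the 5 cerebella, blue for Purkinje cells and grey for all other kept cells; squares and triangles are the means of Pax2+ cells and granule neurons. Pcp4, Gng13, Cck, Shh and Igf1 separate the 2 sets of circles, and Neurod1, Ccnd2 and Tfap2b lie lower in Purkinje cells.

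Signals sent to neighbours included genes found almost only in Purkinje cells. Of 14 tested genes of this list, 9 were higher and 2 were lower in Purkinje cells, with a median log2 fold change of 2.67. Shh gave 44 UMIs in all kept WT cells, and 42 of these lay in 28 Purkinje cells. Its level was 49.6, 49.3, 28.3, 26.8 and 24.4 CPM in Purkinje cells of cerebella 1 to 5, while the other cells held 1 UMI in each of cerebella 1 and 4 and none elsewhere. Shh was found in 19.05% of Purkinje cells, in 4.76% after thinning to 500 UMIs, and in no non-neural cell, so most Purkinje cells had no Shh UMI at this depth.

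Igf1, a growth factor, measured 566, 641, 348, 402 and 513 CPM against 10.9 to 28.4 CPM in the other cells (log2 fold change 4.92). Fgf7 averaged 97.1 against 0.973 CPM (6.18), the platelet-derived growth factor Pdgfa 122 against 24.1 CPM (2.43) and the guidance ligand Sema3a 108 against 9.43 CPM (3.65). Fgf3 did not enter the test, with 44.8 CPM in Purkinje cells and 0.569 CPM in the others. Dner, a transmembrane Notch ligand known from Purkinje cells, averaged 2211 against 157 CPM (3.86). The synaptic organizer Cbln1, which granule neurons secrete, was lower (8.64 against 57.5 CPM, log2 fold change -2.11), as was the chemokine Cxcl12 (23.9 against 111 CPM, -2.49).

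Genes of the response to hedgehog ligand were not higher in Purkinje cells. None of 10 tested genes was higher and 6 were lower, against 19.5% and 23.5% of all genes, with a median log2 fold change of -1.10. Of the 10, 7 entered the test through the other cells only, which favors a lower value. Of the 6, Gas1 lost its call without the block and without cerebellum 2, 3, 4 or 5, and Sufu by DESeq2 and without cerebellum 1, 3, 4 or 5. Gli1, a direct target, gave UMIs in 5 Purkinje cells and measured 10.6, 0, 0, 5.37 and 0 CPM against 18.9 to 38.02 CPM in the other cells (log2 fold change -2.18). Ccnd2 averaged 141 against 1050.1 CPM and Ccnd1 52.2 against 244 CPM, both cyclins of the CGNP response, and Ccnd2 averaged 67.6 CPM in Purkinje cells without the 13 cells with under 7 gate UMIs. Ptch1 was too low for the test, at 2.95 and 5.47 CPM. Those 13 cells held 56.6% of the hedgehog-response UMIs of the gated cells. Without them 8 of 10 genes were lower and none higher, and the list summed to 248 CPM instead of 357 CPM in Purkinje cells, against 1654 CPM in the other cells. Genes over the filter limit in both classes were not counted apart in that setting.

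Most tested genes of calcium signaling were higher, from phospholipase C to effectors. Of 32 tested genes, 26 were higher and 1 was lower, with a median log2 fold change of 2.92. The call of Calm2 was lost by DESeq2, without the block, without the filter on low counts and without cerebellum 3 or 4 (0.10 to 0.34). Plcb4, a phospholipase C, averaged 1612 against 88.9 CPM (log2 fold change 4.25) and the postsynaptic scaffold Homer3 233 against 21.5 CPM (3.46). Among downstream kinases, Camk2a averaged 77.5 against 2.20 CPM and the IP3 kinase Itpka 59.3 against 1.12 CPM, with log2 fold changes of 5.15 and 5.96. The calcium pumps divided by isoform: Atp2b2 averaged 746 against 49.7 CPM (3.94) and Atp2a2 627 against 121 CPM (2.45), while Atp2b1 was lower at 198 against 386 CPM (-0.82). That last difference was -0.03 when the other cells were limited to those at least as deep as the median Purkinje cell of their cerebellum.

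Most synaptic receptor genes were higher. Of 25 tested synaptic receptor genes, 22 were higher and 2 lower (median log2 fold change 2.29). The AMPA receptor subunits Gria1 and Gria2 averaged 333 against 34.7 CPM (3.29) and 1457 against 334 CPM (2.20). The NMDA receptor subunit Grin2b, abundant in differentiating granule neurons, was lower at 5.32 against 67.8 CPM (-3.60), and so was Gria4 at 32.8 against 119 CPM (-1.54). Gabra6, a GABA receptor subunit of mature granule neurons, had no UMI in Purkinje cells and 0.715 CPM in the others.

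GABA synthesis and release genes were higher in 17 of 19 cases and lower in 1 (median log2 fold change 2.05). Gad1 averaged 262 against 32.7 CPM, Gad2 199 against 25.02 CPM and the vesicular GABA transporter Slc32a1 214 against 21.4 CPM, with log2 fold changes of 3.08, 3.07 and 3.41. The lower gene was Slc17a6, a vesicular glutamate transporter (6.76 against 125 CPM, and 3.17 CPM without the 13 cells with under 7 gate UMIs). Slc17a8, another vesicular glutamate transporter, was among the genes named for their difference from granule neurons. It averaged 191 CPM in Purkinje cells, 2.72 CPM in all other cells and 0.482 CPM in granule neurons.

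Ion channel and axon genes made up another large block. Of 28 tested ion channel genes 22 were higher and 1, Cacna2d1, was lower (median log2 fold change 2.59). Kcnip1, a subunit of A-type potassium channels, measured 218, 296, 320, 263 and 452 CPM against 2.30 to 5.03 CPM in the other cells (6.48). The large-conductance potassium channel Kcnma1 averaged 232 against 9.42 CPM (4.68) and the calcium channel subunits Cacna1g and Cacna1a 71.5 against 6.23 CPM (3.41) and 131 against 23.2 CPM (2.37). Of 40 axon and cytoskeleton genes 24 were higher and 5 lower, with a median of 0.88. Among these calls, that of Klc1 was lost by DESeq2, without the filter on low counts and without cerebellum 3 (0.32 to 0.48). Neurofilament Nefl averaged 1437 against 112 CPM (3.76) and Thy1 616 against 9.95 CPM (6.03). Genes known from growing neurites lay on both sides, with Gap43 at 511 against 859 CPM (-0.72) and Tubb5 at 1056 against 3019 CPM (-1.46), while Crmp1 averaged 1240.5 CPM and Map1b 2012 CPM in Purkinje cells and both were higher there. Gap43 did not pass the test when the other cells were limited to deep ones, at -0.40.

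Among genes over the filter limit in both classes, 11 of 12 identity genes, 15 of 16 GABA and release genes, 12 of 14 ion channel genes and 3 of 4 signal genes were higher and none was lower. Of 21 calcium pathway genes 17 were higher and 1 was lower, of 18 receptor genes 16 were higher and 1 was lower, and of 36 axon and cytoskeleton genes 21 were higher and 5 were lower. In the other direction 2 of 3 hedgehog response, 7 of 8 cell cycle and 7 of 7 granule lineage genes were lower and none was higher. Of 10 astrocyte and Bergmann glia genes 6 were lower and 2 higher, and 2 of 2 oligodendrocyte genes were lower.

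**Figure D4:**
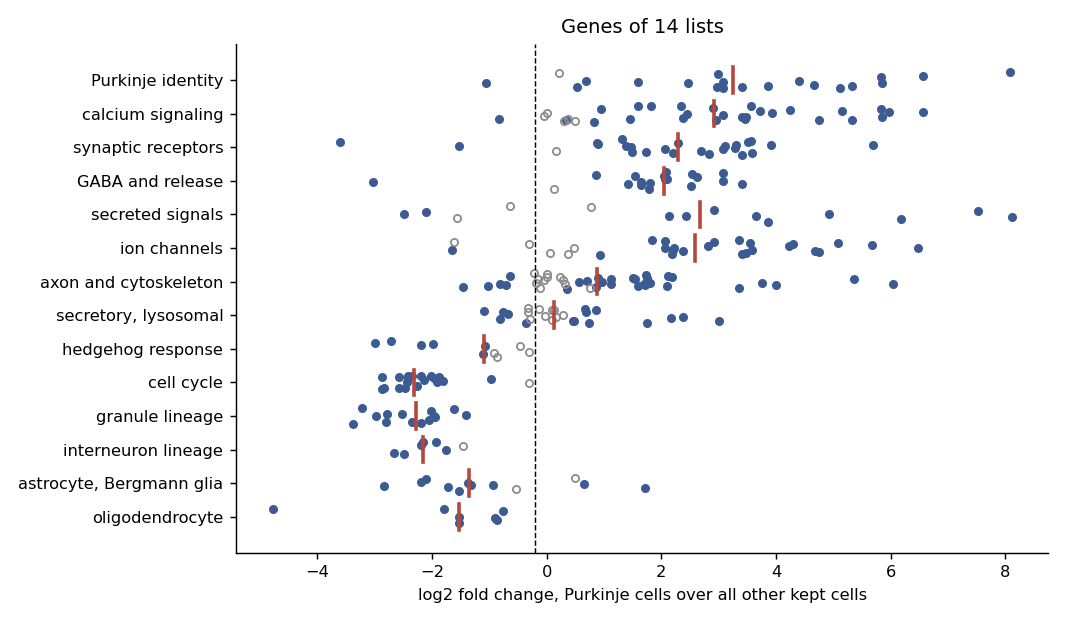
Log2 fold change of each tested gene of 14 lists in Purkinje cells over all other kept cells. Filled points passed the edgeR test, open points did not, red bars are list medians and the dashed line is the median of all 10372 genes (-0.20); the Purkinje, calcium, receptor, GABA, signal and channel lists lie to the right and the hedgehog response, cell cycle and lineage lists to the left.

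The rule for named genes took the 15 highest log2 fold changes among genes with at least 25 UMIs in Purkinje cells that were higher in 5 of 5 cerebella. They were Il22 (8.35), Cck (8.11), Gng13 (8.09), Slc5a1 (7.75), Iltifb (7.68), Shh (7.51), Krt25 (7.35), Smpx (7.31), Gm9866 (7.19), Scd3 (6.87), Slc1a6 (6.82), Coch (6.81), Cox6a2 (6.74), BC048502 (6.70) and Ndnf (6.67). All 15 entered the test through Purkinje cells only. Shh, Slc5a1 and Krt25 had 2 UMIs each and Gm9866 had 3 in the other cells, so their fitted values depend on the prior count and are no bound. Cck, the neuropeptide cholecystokinin, gave 394 of its 412 UMIs in Purkinje cells, and measured 430, 382, 386, 354 and 159 CPM there against 0.607 to 3.78 CPM in the other cells. Cerebellum 5 was lowest of the 5 for Cck. Slc1a6, the glutamate transporter EAAT4, measured 239, 727, 622, 784 and 879 CPM against 2.88 to 6.92 CPM, and cerebellum 1 was lowest.

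Il22 and Iltifb, annotated as a cytokine gene and its copy on chromosome 10, gave 152 of 158 and 201 of 216 UMIs in Purkinje cells. Il22 measured 135, 210, 179, 161 and 122 CPM in Purkinje cells, and no UMI of either gene lay in a Pax2+ cell. Their transcripts shared 435 runs of 50 bases, 41.0% of those of Il22 and 39.7% of those of Iltifb, so the division of reads between the copies is uncertain. Krt25, a hair keratin, and Smpx, a muscle protein, gave 36 of 38 and 139 of 151 UMIs in Purkinje cells. Slc5a1, a sodium-glucose cotransporter, gave 49 of 51 UMIs and was found in 30 Purkinje cells. Over all 15741 genes with at least 20 UMIs in WT cells, 203 outside the gate had over 50% and 12 had over 90% of their UMIs in Purkinje cells, where the median gene had 5.41%.

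At the other end the 10 lowest with at least 100 CPM in the other cells were Spp1 (-5.38), Ptgds (-5.08), Dcn (-4.58), Ttr (-3.96), Col3a1 (-3.79), Cenpa (-3.30), Neurod1 (-3.22), Nhlh2 (-3.17), Tpx2 (-3.15) and Neurod6 (-3.08), of which Neurod1 and Nhlh2 were over the filter limit in both classes. They are genes of microglia, meninges, choroid plexus and fibroblasts, of mitosis, and of immature granule neurons. The fold of Ttr rested on cerebella 3 and 4, where the other cells held 2247 and 2369 CPM, since in cerebella 1 and 2 it measured 8.85 and 12.3 CPM in Purkinje cells against 11.5 and 18.8 CPM. It was not called against Pax2+ cells (-0.76) or granule neurons (-0.52). Ptgds stood at 24.7 against 27.4 CPM in cerebellum 2. Without the 13 cells with under 7 gate UMIs the log2 fold changes of Tpx2 (-5.62), Col3a1 (-4.99), Cenpa (-4.63), Nhlh2 (-4.09) and Neurod6 (-3.80) were further from 0. Neurod1 measured 372, 308, 235, 220 and 147 CPM in Purkinje cells against 2205 to 2720 CPM in the other cells (-3.22 ± 0.17, edgeR adjusted p = 1.66e-20), and it overlaps Cerkl on the same strand. Of its 313 UMIs in Purkinje cells 196 lay in the 13 cells with under 7 gate UMIs, and without them Neurod1 averaged 151 CPM (-4.01).

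Lists of other cell types summed on average to less in Purkinje cells than in all other cells, but not to 0. The granule lineage list summed to 452 to 1221 CPM over 15 genes, against 5083 to 6366 CPM in the other cells, with only Cbln3 at 0, and all 14 tested genes were lower. The cell cycle list (20 genes, none at 0) summed to 696 to 2370 CPM against 5727 to 6760 CPM, and 19 of 20 genes were lower and none higher. Without the 13 cells with under 7 gate UMIs the 2 lists came to 493 ± 135 CPM and 683 ± 79.0 CPM. No interneuron lineage gene was over the filter limit in both classes, so their calls are not counted here, and the list summed to 47.1 to 136 CPM against 320 to 545 CPM, with a mean of 71.6 CPM in all gated cells and 41.8 CPM without the 13. Astrocyte and Bergmann glia genes summed to 733 to 2744 CPM against 3264 to 5400 CPM, with 8 of 12 lower and 2 higher, Ttyh1 and Mt3. Against granule neurons 6 of 10 were higher and none lower, where 25.6% and 25.3% of all genes were. Of the 3 over the filter limit in both classes 1 was higher and none lower. Without the 13 cells with under 7 gate UMIs 3 of 9 were higher and 4 lower, so that direction was not stable. Against Pax2+ cells 4 of 9 were lower and 2 higher, where 25.8% and 28.1% of all genes were, and 4 of 7 and 2 without those cells. The 1 gene over the limit in both classes was not called. Without the 13 cells, which held 57.5% of these UMIs, the mean went from 1661 to 1090 CPM and 9 of 12 were lower. Against deep other cells the lower call was lost by Apoe (-1.08), Sparcl1 (-0.77), Mt2 (-0.15), Aqp4 (0.04) and Fabp7 (0.18). The call of Ttyh1 (0.66) was lost without cerebellum 4 (0.47), without the filter on low counts (0.42) and by DESeq2 (0.49). Mt3 averaged 164 against 54.9 CPM.

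The sums of the oligodendrocyte and vascular lists rested on single cerebella. Oligodendrocyte genes summed to 3155 CPM in Purkinje cells of cerebellum 3 and to 61.0 to 361 CPM in the other 4, against 707 to 1974 CPM in the other cells. All 7 tested were lower, but 4 of them entered through the other cells only. Mbp, a myelin gene, was lower in that count at -0.87 but came out at 0.30 against deep other cells, so it has no stable direction. The call of Mbp was also lost without cerebellum 1, 2, 4 or 5 (-0.69 to -0.38), and so was that of Cnp (-0.81 to -0.50). Sox10 lost its call by DESeq2, without the block and without cerebellum 2, 4 or 5, and Olig2 without the block, so the count of 7 is not stable. Vascular genes summed to 1381 CPM in Purkinje cells of cerebellum 2 and to 12.2 to 326 CPM in the other 4. Cldn5, an endothelial gene, gave 189 UMIs in 5 gated cells, 107 of them in 1 cell. Of the 189 UMIs 108 lay in the cells with under 7 gate UMIs, where the name Purkinje did not hold. The log2 fold change of Cldn5 went from 0.76 to -4.50 under a stricter gate of 4 genes and 6 UMIs. The microglia list gave 37 UMIs over 9 genes, with C1qb, C1qc, Csf1r and P2ry12 at 0, and summed to 18.8 to 48.3 CPM against 160 to 797 CPM. No doublet caller was run, and whether 2 cells shared a droplet was not tested.

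Pax2 marks the interneuron lineage, which is GABAergic, as Purkinje cells are, but 1 Pax2 UMI placed a cell in this class. All 9 tested granule lineage genes (median log2 difference -2.18) and 11 of 12 cell cycle genes were lower in Purkinje cells, against 25.8% of all genes. Over the filter limit in both classes these counts were 1 of 1 and 1 of 2. The class thus also held granule lineage transcripts, and how many of its cells belong to the interneuron lineage was not tested. Of 13 tested GABA and release genes 12 were higher in Purkinje cells (median 1.78), with log2 differences of 0.65 for Gad1, 0.59 for Gad2 and 1.23 for Slc32a1. All 16 tested ion channel genes were higher in Purkinje cells (median 3.15) and 19 of 21 calcium pathway genes were higher and 1 lower (median 2.92), but most of them entered this test through Purkinje cells only. Over the filter limit in both classes, 6 of 7 GABA and release genes, 2 of 2 ion channel genes and 4 of 6 calcium pathway genes were higher and 1 calcium pathway gene was lower, against 27.8% higher and 24.9% lower of all 1265 such genes. The named higher genes of this comparison were Fam184b, Iltifb, Plekhd1, Il22, Smpx, Cck, Gng13 and Pcp4. The first 5 of these had no UMI in Pax2+ cells, while Fam184b gave 250 UMIs and Plekhd1 168 UMIs in Purkinje cells. Cck and Gng13 gave 1 UMI each in Pax2+ cells. The log2 difference of Pcp4 was 7.26 ± 0.19.

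Genes lower than in Pax2+ cells included Tfap2a and Tfap2b, transcription factors of the GABAergic interneuron lineage, and Nhlh2, a gene of immature granule neurons. Tfap2a and Tfap2b entered this test through Pax2+ cells only, which favors a lower value in Purkinje cells. The 8 named were Kit (-4.84), Megf11 (-4.56), Tfap2a (-4.30), Tfap2b (-4.21), Nhlh2 (-4.09), Tmem178 (-3.99), Neurod2 (-3.94) and RP24-351J24.2 (-3.84). Kit, the receptor of the gate gene product KITL, gave 4 UMIs in 3 Purkinje cells and averaged 154 CPM in Pax2+ cells. Tfap2b averaged 17.96 CPM in Purkinje cells, 11.6 CPM without the 13 cells with under 7 gate UMIs, and 447 CPM in Pax2+ cells. Lhx5 was also lower than in Pax2+ cells, with a log2 difference of -3.74, but its Purkinje values lay under the filter limit of this test, about 65.0 CPM.

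Against granule neurons the named higher genes were Cck (8.39), Il22 (8.18), Itpka, Iltifb (7.69), Slc17a8 (7.62), Gng13 (7.59), Cox6a2 and Hspb1 (7.49), and Itpka and Cox6a2 had no UMI in granule neurons. Il22 had 1 UMI there, Cck, Iltifb, Slc17a8 and Hspb1 had 3 each and Gng13 had 5, so these fitted values depend on the prior count and are no bound. Identity genes were higher in 15 of 17 cases, with a median of 4.39, and synaptic receptor genes were higher in 20 of 22 cases. Over the filter limit in both classes, 5 of 7 and 4 of 5 were higher, against 29.9% of all 2525 such genes. The named lower genes were Neurod1 (-3.86), Pdzrn3 (-3.70), Tex14 (-3.70), Neurod6 (-3.59), Sstr2 (-3.51), Nhlh2 (-3.51), Erbb4 (-3.50) and St18 (-3.47). Of the 4 cell cycle genes over the limit in both classes 3 were lower. Of all 20 tested 18 were lower than in granule neurons, in which the centromere gene Cenpa averaged 236 CPM.

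Gated cells varied among themselves, in part through the 13 cells with under 7 gate UMIs. The variance of each gene over the 147 cells was divided by the variance that Poisson counting gives at each cell's depth, for 3892 genes with at least 50 UMIs, and the median ratio was 1.23. The 9 highest ratios were Apoe (47.4), Pcp4 (43.2), Fabp7 (42.6), Meg3 (35.2), Dbi (28.6), Cldn5 (23.8), Fth1 (21.8), Ptn (21.3) and Mbp (21.3). Of these, Pcp4 and Meg3, a neuronal long noncoding RNA, were also high in Purkinje cells, and Meg3 averaged 5921 against 423 CPM. The others are genes of glia, myelin or vessels or are widely expressed, and the 13 cells held 434 of the 479 Apoe UMIs and 377 of the 657 Fabp7 UMIs. Over the 134 cells with at least 7 gate UMIs the ratio was 1.52 for Apoe, 3.10 for Ptn, 4.00 for Cldn5 and 4.23 for Fth1, against a median of 1.17 over 3264 genes. It was 26.7 for Meg3, 23.1 for Fabp7, 20.4 for Mbp, 19.8 for Pcp4 and 11.9 for Dbi, though 1 cell held 179 of the 204 Mbp UMIs among these 134.

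Genes that mark parasagittal zones of Purkinje cells varied together or apart in part. Among 75 Purkinje cells with over 80 gate UMIs (31 from cerebellum 1 and 44 from the others), Spearman's rho was taken for 105 pairs of 15 zone genes on depth-scaled levels, of which Ppp1r17 and Pvalb were added after their values were seen. Cells share library and depth, so these values only describe. The median rho was 0.06, and of the 105 pairs 5 had a rho above 0.4 and 2 had a rho below -0.4. Cck went with Rgs8 (0.59 in all, 0.70 in cerebellum 1 and 0.44 in the others) and with Plcb4 (0.42), and Ebf2 went with Plcb4 (0.46). Cck went against Pcdh10 (-0.44) and Foxp2 (-0.43).

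Cells were then split by Cck, a choice made after these values were seen, so the levels below show the same relations by cerebellum and are no further support for them. In 48 of the 75 cells Cck was detected and in 27 it was not, and the first were deeper, with a median of 10628.5 against 6588 UMIs. Plcb4 averaged 2323 ± 340 CPM in cells with Cck and 1127 ± 268 CPM in cells without, and was higher with Cck in 5 of 5 cerebella. Ebf2 averaged 148 against 31.4 CPM and the small heat shock protein Hspb1 302 against 146 CPM, each also higher in 5 of 5. Pcdh10 averaged 58.8 against 289 CPM and was higher with Cck in 0 of 5 cerebella. In cerebellum 5 Pcdh10 stood at 0 CPM with Cck and 51.7 CPM without, and Ebf2 stood at 0 CPM without Cck in cerebella 2 and 5. The 27 cells without Cck were spread over 5 cerebella, so some of these values rest on few cells and the counts of cerebella are weak. Slc1a6 averaged 537 against 1155 CPM and Foxp2 292 against 435 CPM, and each was higher with Cck in 1 of 5. The rho of Cck with Slc1a6 was -0.07, at 0.23 in cerebellum 1 and -0.29 in the others, so that relation had no stable sign. Aldoc, the gene of the zone marker zebrin II, averaged 81.8 CPM in Purkinje cells and 47.9 CPM in the others and did not pass the test (log2 fold change 0.72, edgeR adjusted p = 0.12). It passed without the 13 cells with under 7 gate UMIs (0.74, adjusted p = 0.0207) and without cerebellum 1 (1.27), 2 (0.95) or 3 (0.99).

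**Figure D5:**
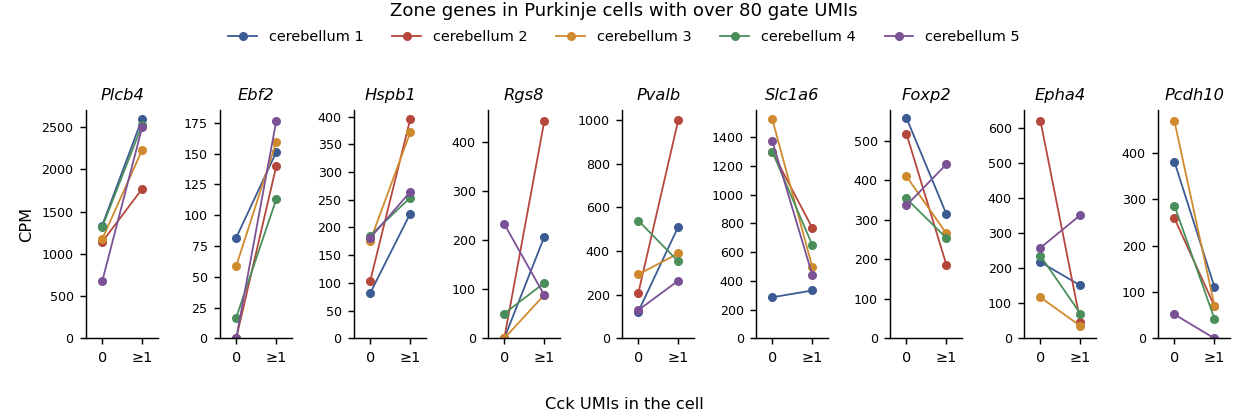
CPM of 9 zone genes, each on its own linear axis from 0, in Purkinje cells with over 80 gate UMIs, split by whether the cell had no Cck UMI or at least 1, with 1 line per cerebellum. Plcb4, Ebf2 and Hspb1 rise toward the cells with Cck in 5 of 5 cerebella, and Pcdh10 falls in 5 of 5, though some points rest on few cells.

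The same gate found few cells in the tumors. It took 12 of 18447 cells of vehicle-treated tumors (mean 0.0673% ± 0.0310, SD, n = 5) and 15 of 12538 cells of vismodegib-treated tumors (0.148% ± 0.131). These shares depended on the gate: thinned to 500 UMIs per cell they were 0.00806% (2 cells) and 0.0379% (3 cells), under the stricter gate 0.0304% and 0.0662%, and under a looser gate of 2 genes and 3 UMIs 0.363% and 0.457%. The difference of means between vehicle-treated tumors and WT cerebella was -1.81 percentage points. The gate was set on WT cells, so this difference is a description and no p is given. The groups did not overlap, but age, genotype, vehicle injection and capture device differ between them. Only tumor libraries also had a spike-in of cultured human cells, with barcodes kept by their share of mouse transcripts. These factors cannot be told apart. The difference between vismodegib-treated and vehicle-treated tumors did not pass a 2-sided exact permutation test (0.0802 percentage points, p = 0.262). Cells that passed the gate in tumors held 6 Calb1 UMIs with vehicle and 11 with vismodegib and no Shh UMI. Per tumor they held 14 to 58 UMIs of the 6 gate genes with vehicle and 4 to 277 with vismodegib. Their Pcp4 UMIs ran from 1 to 31 per tumor with vehicle and from 0 to 104 with vismodegib. All kept cells of each tumor held 0 or 1 Shh UMI. The tumor cells taken by the gate were too few for levels to be compared with those of WT Purkinje cells.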

How the data were processed

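The authors made the deposited files from Drop-seq reads of 15 mice, with Drop-seq Tools and STAR (5.4b in the submitters' processing notes), against mm10 to which both transgenes, Cre and SmoM2/EYFP, had been appended. The deposited values are raw UMI counts per gene and barcode, not normalized. WT libraries list 3000 barcodes each, with 2310474 to 5952919 UMIs. No source used here gives their annotation release. No doublet caller was run.

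Cells had at least 500 UMIs and 500 genes, with no upper limit. The members and lists were chosen with earlier results of these data known, and the oxidative phosphorylation, ribosomal and mitochondrial sets were added with the results in view. Counts were summed per cerebellum and class and tested in R 4.3.3 with edgeR 4.0.16 (TMM, filterByExpr, quasi-likelihood test, cerebellum as a block, Benjamini-Hochberg). Both sums come from the same mouse, and same-numbered sums deviated together (r from 0.131 to 0.496 over 2680 genes for all other cells, 0.129 to 0.340 over 2573 for Pax2+ cells and 0.0765 to 0.403 over 2635 for granule neurons, against medians of -0.050, -0.048 and -0.031 between different numbers). The SE printed with an edgeR log2 fold change is its absolute value divided by the square root of the F statistic, not an SE given by the fit. DESeq2 1.42.0, Python 3.11.15 and scipy 1.17.1 were also used. Named genes are the 15 highest and 10 lowest called log2 fold changes against all other cells, and the 8 highest and 8 lowest against the other classes, with the same direction in 5 of 5 cerebella and at least 25 UMIs in Purkinje cells (higher) or 100 CPM in the other class (lower), besides the genes of the lists and the 10 most variable genes with at least 50 UMIs. Mitochondrial, hemoglobin and gate genes were left out of these rankings. Some genes that these rules take enter the counts and medians of their lists but are not reported here. Shares of vehicle-treated and vismodegib-treated tumors entered an exact permutation test over animals, 2-sided. Intervals cover counting error only. The edgeR script was tested on simulated data first.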

Additional observations from a re-analysis of the deposited data

Results flagged for a closer look

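In groups of 5 cerebella, 74 sets of values in gated cells were searched for a highest or lowest value far from the other 4, and 13 were found, of which 4 were among 11 lists and 9 among 51 named genes. Chance alone sets aside about 5% of such groups, and the sets share cells.

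The summed interneuron lineage list stood at 136 CPM in cerebellum 1 against a median of 61.0 CPM, and the list of other neurons at 421 CPM in cerebellum 1 against a median of 166 CPM. Without the cells with under 7 gate UMIs cerebellum 1 held 35.9 and 131 CPM of these lists, within the range of the other 4. Oligodendrocyte genes stood at 3155 CPM in cerebellum 3 against a median of 209 CPM, with Mbp at 1695 CPM there. Vascular genes stood at 1381 CPM in cerebellum 2 against a median of 94.2 CPM, with Cldn5 at 961 CPM there. Unlike those of cerebellum 1, these values stayed without the cells with under 7 gate UMIs. Oligodendrocyte genes then held 3241 CPM in cerebellum 3, and vascular genes held 1465 CPM in cerebellum 2. A cell of cerebellum 2 with 10735 UMIs, 7 gate UMIs and 1 UMI of the identity list is among those that remain.

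Cck was lowest in cerebellum 5, at 159 CPM against a median of 382 CPM, and Smpx was highest there, at 195 CPM against 134 CPM. Cenpa was at 47.8 CPM and Ptn at 1052 CPM in cerebellum 1 (11.95 and 210 CPM without those cells), Kit at 24.7 CPM in cerebellum 2, and Spp1 at 18.8 CPM in cerebellum 3 with no UMI in the other 4. Tmem178 was at 0 CPM in cerebellum 5 against a median of 10.6 CPM.

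Barcodes under the minimum of 500 UMIs and 500 genes, which no comparison used, also held Purkinje transcripts. Of 7634 such barcodes 67 passed the gate (0.878%), and all 7634 together held 11.8% of all gate UMIs, between 3.99% and 29.0% per cerebellum. Pcp4 averaged 916 CPM in these barcodes and 238 CPM in kept cells outside the gate.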

How the results depend on the processing

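Counts of called genes against all other cells, Pax2+ cells and granule neurons were 4465, 1736 and 2935. Without the replicate block they were 4197, 1638 and 2764, and no share of cells involves pairing. Sums thinned to equal totals gave 1414 of 2311 genes tested, 1047 of 1739 and 1451 of 2301, since fewer genes could be tested. Without the filter on low counts, 2740 and 4412 genes were called against Pax2+ cells and granule neurons, and 3686 rather than 2438 were lower than in all other cells. DESeq2 gave 4078, 1385 and 2500. With RLE size factors 4923 genes were called (1804 higher and 3119 lower), and the median log2 fold change of all genes moved from -0.20 to -0.34. Leaving out 1 cerebellum gave 3558 to 4254, 1345 to 1877 and 2096 to 3255 genes. The mean share of gated cells was 1.74% to 2.03% with 1 cerebellum left out, 2.94% with a looser gate of 2 genes and 3 UMIs, and 2.51% with a minimum of 1000 UMIs. The vehicle difference from WT ran from -1.96 to -1.67 percentage points with 1 animal left out, and that between treatments from 0.0276 to 0.107.

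Directions changed for few genes. Against other cells at least as deep as the median Purkinje cell of the cerebellum, Aqp4 (0.039), Cnp (0.67), Dpysl3 (1.10), Fabp7 (0.18), Map2 (0.42), Mbp (0.30), Tuba1a (0.30) and Tubb2b (0.00103) came out higher, and without the block Mbp did (0.11). Against those deep cells Dpysl3 and Map2 passed the edgeR test (adjusted p = 0.000157 and 0.0262). Aqp4 (0.97), Fabp7 (0.81), Mbp (0.40) and Cnp (0.18) did not. That setting kept the cells with under 7 gate UMIs, which held 116 of 132 Aqp4 and 377 of 657 Fabp7 UMIs. Under a stricter gate Cldn5 (-4.50) and Kdr (-7.62) came out lower, and so did Cldn5 (-4.09) with an upper limit of 5 SD on cells. The causes were not tested. Leaving out Neurod1-rich cells, cells with under 7 gate UMIs, or other cells with gate UMIs was chosen after seeing the data, as were the looser gate and higher minimum for tumors and the identity list without Pcp4. Without the cells under 7 gate UMIs the counts were 5082, 1964 and 3264, and 294 of 304 named and list genes stayed on their side of the threshold, no called gene changed direction and 10 passed the threshold newly.

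Depth limits the low genes. Most Purkinje cells had no UMI of Shh or Gli1 at this depth, and a cell without a UMI is not shown to lack the transcript.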

Other observations

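Genes of energy metabolism moved together in Purkinje cells. Of 84 tested nuclear genes of oxidative phosphorylation, 76 were higher and 0 were lower than in all other cells by edgeR's quasi-likelihood test, against 19.5% and 23.5% of all genes, with a median log2 fold change of 0.90. Against Pax2+ cells 69 of 73 were higher, where 28.1% of all genes were. Against granule neurons 74 of 79 were higher, where 25.6% of all genes were. These comparisons share the Purkinje sums. Of 18 tested genes of the mitochondrial genome 14 were higher and 1 was lower, with a median of 1.63. Genes with symbols of cytosolic ribosomal proteins went the other way, with 2 of 183 higher and 93 lower and a median of -0.90. Symbols of this kind also take in pseudogenes and S6 kinase genes. These 3 sets were chosen with the results in view. No count over the filter limit in both classes was made for them, so the part of entry through 1 class is not known.

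Some genes of neuropeptide processing and of granule proteins were among the secretory genes that were higher. Others of these kinds, Pcsk2 (0.39) and Scg3 (0.18), did not pass without the cells with under 7 gate UMIs. Of 25 tested secretory and lysosomal genes 10 were higher and 5 were lower, against 19.5% and 23.5% of all genes, so the share that was lower was near that of all genes. Among these calls, Calr, Scg5, Hsp90b1 and Itm2c were lost under 3 or more alternatives. Pcsk1n averaged 954 CPM in Purkinje cells and 126 CPM in the other cells (log2 fold change 3.00), Chga 361 and 72.6 CPM (2.38), and Chgb 815 and 187 CPM (2.17). The lysosomal protease gene Ctsd was lower at 71.4 against 185 CPM (-1.09), a call that was lost against deep other cells (-0.71, edgeR adjusted p = 0.15). The reelin receptor gene Vldlr was also higher, at 215 against 27.7 CPM (3.11), as was the adaptor Dab1 at 315 against 28.2 CPM (3.58). The other receptor gene, Lrp8, averaged 67.2 against 38.4 CPM (0.90), and its call was lost by DESeq2, without the block, without the filter on low counts and without cerebellum 1 or 2 (0.66 to 0.84).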
